A study of Saccharomyces cerevisiae with 4 samples.

Results

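In budding yeast, 8 small nucleolar RNAs (snoRNAs) lie inside introns of protein-coding genes, and those host genes are described here. The hosts were found by overlap with the R64 annotation, in which 8 of 76 nuclear snoRNA genes lay within an intron of a coding gene on the same strand, out of 6002 coding genes of which 271 had an annotated intron. Molecules counted for a host lay on its strand and overlapped the gene with 300 bases on each side. They made up 3768 of the 425462 distinct start and end pairs in the table, with 22444 reads. Of these reads, 20792 touched a host's coding span (the stretch from start to stop codon, introns included), or 1.13% of all 1833796 reads. The other 1652 lay only in the flanks, 1007 of them beside RPL7A and 602 beside NOG2, and were left out of every share.

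The data came from TIF-Seq, in which a full-length cDNA is closed into a circle and the joined ends are sequenced, so that the start and the polyadenylated end of 1 RNA molecule are read together. The cells were strain FSY3636, MATa and of S288c background, in which rrp6 was deleted with a kanMX4 marker, harvested at mid-log growth in YPAD, a glucose medium. The 4 libraries, 2 preparations from each of 2 cultures, form 1 group and were deposited as 1 pooled count. There is no wild type among them, so nothing below is a change caused by the deletion, no value has a replicate error, and intervals are 95% intervals for counting error only.

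An intronic snoRNA has no promoter of its own. In the main route, the intron is spliced out as a lariat and opened by the debranching enzyme. Exonucleases then trim it from both ends down to the snoRNA, which the proteins bound to it protect. Its mature 5′ end is therefore made by trimming and is not a transcription start. In yeast the last bases of many snoRNA 3′ ends are removed by the nuclear exosome, of which Rrp6 is an exonuclease, and short poly(A) tails added by the TRAMP complex mark RNAs for this machinery. Box C/D snoRNAs guide 2′-O-methylation of ribosomal RNA and box H/ACA snoRNAs guide pseudouridylation.

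The hosts fall into 3 kinds of gene, all serving translation or growth. EFB1 (YAL003W, holding SNR18) and TEF4 (YKL081W, SNR38) encode subunits of the exchange factor of translation elongation factor 1. RPL7A (YGL076C, SNR39), RPL7B (YPL198W, SNR59) and RPS22B (YLR367W, SNR44) encode ribosomal proteins, and ASC1 (YMR116C, SNR24) encodes a protein bound to the small ribosomal subunit. IMD4 (YML056C, SNR54) encodes an IMP dehydrogenase of guanine nucleotide synthesis, and NOG2 (YNR053C, SNR191) a GTPase of large subunit assembly. SNR44 and SNR191 are of the H/ACA class and the other 6 of the C/D class. SNR39 and SNR59, in the paralogs RPL7A and RPL7B, are annotated as guides for the same position of large subunit ribosomal RNA. The host introns ran from 273 bases in ASC1 to 532 in NOG2, and in the RPL7 genes it was the second of 2 introns.

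The most-read molecules inside 3 of these introns are shown because they carry the main finding: they began at the snoRNA and ended in the intron past it. Lower case is the snoRNA as annotated, with 1 base before it in RPS22B, and capitals are the bases past its annotated last base. Sequences and coordinates are from the R64 reference, and each runs 5′ to 3′ on the gene's strand.
ASC1, SNR24 molecule (chrXIII:499881-500072, minus strand): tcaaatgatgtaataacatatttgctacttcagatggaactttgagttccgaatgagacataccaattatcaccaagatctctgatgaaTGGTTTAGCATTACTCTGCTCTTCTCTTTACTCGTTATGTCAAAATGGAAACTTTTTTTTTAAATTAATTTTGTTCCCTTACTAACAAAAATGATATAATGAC
RPL7A, SNR39 molecule (chrVII:365002-365251, minus strand): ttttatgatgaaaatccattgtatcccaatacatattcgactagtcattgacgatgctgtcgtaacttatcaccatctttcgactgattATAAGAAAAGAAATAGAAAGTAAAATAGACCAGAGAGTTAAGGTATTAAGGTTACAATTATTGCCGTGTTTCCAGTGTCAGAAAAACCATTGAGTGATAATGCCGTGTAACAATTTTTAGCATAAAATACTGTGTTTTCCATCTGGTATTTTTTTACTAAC
RPS22B, SNR44 molecule (chrXII:856709-856941, plus strand): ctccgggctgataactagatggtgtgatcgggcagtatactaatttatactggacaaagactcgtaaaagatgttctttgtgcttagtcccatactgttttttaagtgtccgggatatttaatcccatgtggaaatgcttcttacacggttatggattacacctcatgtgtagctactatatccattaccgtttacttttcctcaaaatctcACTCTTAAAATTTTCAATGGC

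The ASC1 molecule had 175 reads, was 192 bases long and stopped 2 bases short of the last intron base. The RPL7A molecule had 174 reads over 250 bases and ended on the last letter of TACTAAC, the yeast branch point sequence, 37 bases before the end of the intron. The RPS22B molecule had 181 reads over 233 bases and ended 21 bases past SNR44, 116 bases before the end of the intron. For the most-read molecule of each of the 8 hosts, the first 30 and the last 30 bases occurred at 1 place in the nuclear genome.

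Each host held both mRNA and snoRNA molecules, though these were not the 2 largest classes in every host. In RPL7B, 296 reads that started upstream ended in an intron and 180 in a later exon, against 245 snoRNA reads. Of the 20792 reads, 14833 (71.3%, Wilson interval 70.7 to 71.95) covered the coding span, and 3767 (18.1%, 17.6 to 18.6) started within 2 bases of the annotated snoRNA start and ended inside its intron. These snoRNA molecules were found in 8 of 8 hosts. Their read counts ranged from 214 in NOG2 to 1448 in IMD4, a 6.77-fold range, while the covering reads ranged 149-fold, from 46 in NOG2 to 6846 in EFB1. A read stands for a whole molecule from start to end and not for a fragment of it, so counts are not divided by length, but PCR copies of 1 molecule may be counted more than once. IMD4 alone held 1448 of the 3767, and without it the share was 12.2% (11.7 to 12.6).

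**Figure D1:**
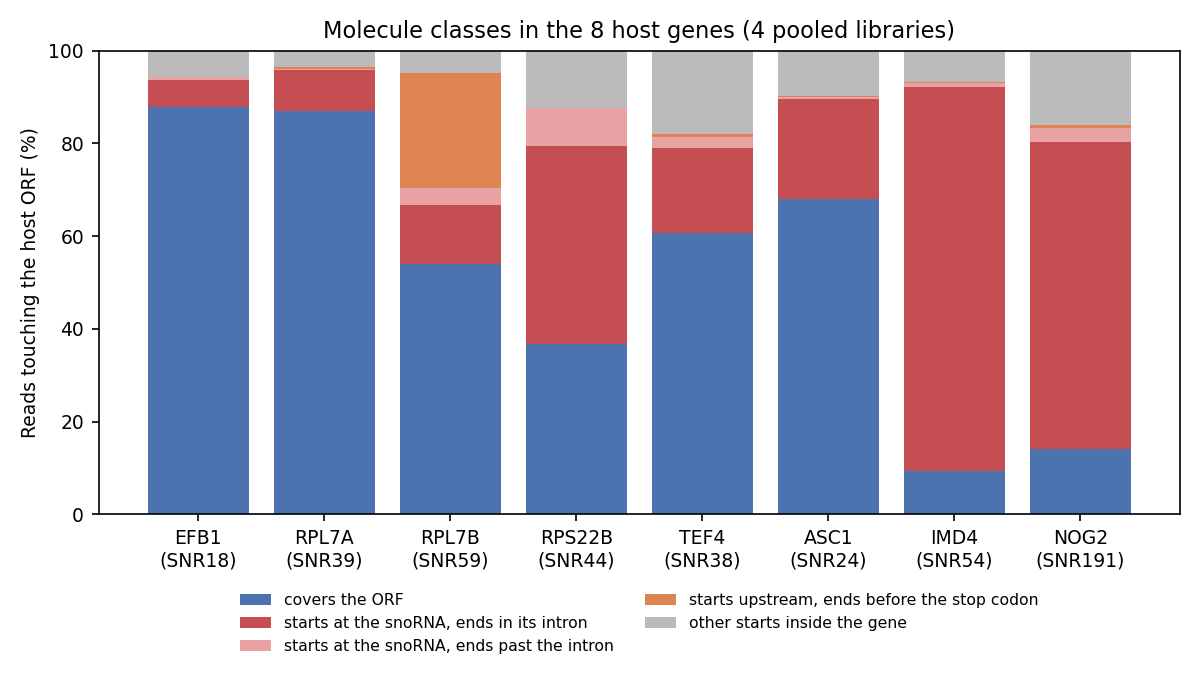
Share of the reads touching each host's coding span, in percent, by class of molecule, for the 4 pooled libraries. Covering molecules (blue) take the largest part in EFB1, RPL7A, RPL7B, TEF4 and ASC1. Molecules that start at the snoRNA and end in its intron (dark red) take the largest part in IMD4, NOG2 and RPS22B. In RPS22B the counting intervals of the dark red and blue classes overlap. RPL7B alone has a broad band of molecules that start upstream and end early (orange). Molecules that end before the start codon are not shown.

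In the translation factor genes the mRNA was the larger population. EFB1 had 6846 covering and 458 snoRNA reads, or 3733 CPM (each read scaled to a library total of 1000000; exact Poisson interval 3645 to 3823) and 249.8 CPM (227 to 274). The snoRNA molecules were 5.88% (5.38 to 6.42) of its reads. TEF4 had 943 covering and 285 snoRNA reads, and its snoRNA share was 18.3% (16.5 to 20.3). A further 216 TEF4 reads (13.9%) began in the second exon, against 376 (4.83%) in EFB1.

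The ribosomal protein hosts spread more widely. RPL7A had 4135 covering and 413 snoRNA reads, a snoRNA share of 8.70% (7.93 to 9.53). RPL7B had 1039 and 245 reads, a share of 12.7% (11.3 to 14.3). In RPS22B the snoRNA reads, 244, outnumbered the 210 covering reads and were 42.7% (38.7 to 46.8) of the total. The covering share was 36.8% (32.9 to 40.8), so the intervals overlap. ASC1 had 1450 covering and 460 snoRNA reads, a share of 21.6% (19.9 to 23.4), whose interval overlaps that of TEF4. Apart from that pair, no intervals of neighbours in the order of snoRNA shares, from EFB1 to IMD4, overlapped.

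IMD4 and NOG2 stood at the other end of the order. IMD4 had 164 covering and 1448 snoRNA reads, or 89.4 CPM (76.3 to 104) and 789.6 CPM (749 to 831), and a snoRNA share of 82.8% (80.9 to 84.5). NOG2 had 46 covering and 214 snoRNA reads, a share of 66.0% (60.7 to 71.0). These hosts also had the longest coding spans, 1983 and 1993 bases, and the longest covering molecules, with medians of 1716 and 1680 bases once annotated introns are subtracted, against 855 to 1453 in the other 6. The part of molecule length in this order was not tested. Few distinct molecules carried these reads: counted once per distinct start and end pair, the snoRNA share was 21.6% in IMD4, 23.3% in NOG2, 11.3% in RPS22B, 4.31% in TEF4 and 4.14% in ASC1. With the intron shortened by 10 bases on each side, which takes out ends at the splice site, the read share was 54.7% in IMD4, 38.0% in RPS22B, 15.1% in NOG2, 2.91% in EFB1, 1.16% in TEF4 and 0.892% in ASC1. The order of the hosts therefore depends on both choices, and the treatment of PCR copies is not known.

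The starts were almost single positions. Of the 4130 reads that began inside a host's snoRNA intron, 4012 (97.1%, 96.6 to 97.6) began within 2 bases of the annotated snoRNA start, and per host the share was 86.8% to 99.4%. In 7 hosts the most used start was the annotated base itself, with 413 of 504 such reads in EFB1, 414 of 423 in RPL7A, 261 of 316 in RPL7B, 317 of 323 in TEF4, 346 of 468 in ASC1, 1283 of 1464 in IMD4 and 217 of 224 in NOG2. RPS22B was the exception, with 279 of 290 reads 1 base upstream of the annotated start of SNR44 and 1 read on it. In the 55 snoRNA genes outside introns that had at least 50 reads counting only molecules that touched no coding span and no other snoRNA on their strand, the median share of starts within 2 bases was 83.5% (quartiles 69.9% and 95.1%). The host share counts starts inside the intron only, so the denominators differ. The protocol is designed for capped and polyadenylated RNA, and the table does not show whether a molecule starting at an intronic snoRNA carried a cap.

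The ends lay past the snoRNA in all 8 hosts. Counted from the last intron base, the median end of the molecules ending in the intron was at -2 in ASC1 and NOG2, -4 in TEF4, -7 in EFB1, -13 in RPL7B, -16 in IMD4, -37 in RPL7A and -116 in RPS22B. Of the 4012 reads that started at a snoRNA, 0 ended at or before its annotated last base. This allows a share of up to 0.0748%, the share that 3 reads would make, among molecules long enough to be recovered. The protocol is designed for polyadenylated RNA, so the limit does not cover snoRNAs without a poly(A) tail. The 6 C/D snoRNAs are 78 to 102 bases long, and recovery of molecules that short was not tested. The limit is therefore not shown to hold for these 6. In 3767 of the 4012 reads (93.9%) the end lay within the intron. Among molecules ending in the intron, the median end per host was 21 to 210 bases past the snoRNA. The median of the 8 was 149.5 bases, against 148 bases (14 to 597) over the 55 snoRNA genes outside introns. The host values are limited by the intron end, which lay 105 bases past the snoRNA in ASC1 and 226 in IMD4. The other genes have no such limit, so these medians are not like for like. The last intron base itself ended 830 reads (20.7%, 19.5 to 22.0), and a window of 2 bases around it ended 1384 (34.5%, 33.0 to 36.0). It was the most used end in EFB1, RPL7B, TEF4 and NOG2. The lead was small in NOG2, with 56 reads against 55 at -2, and in RPL7B, with 41 against 38 at -145.

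**Figure D2:**
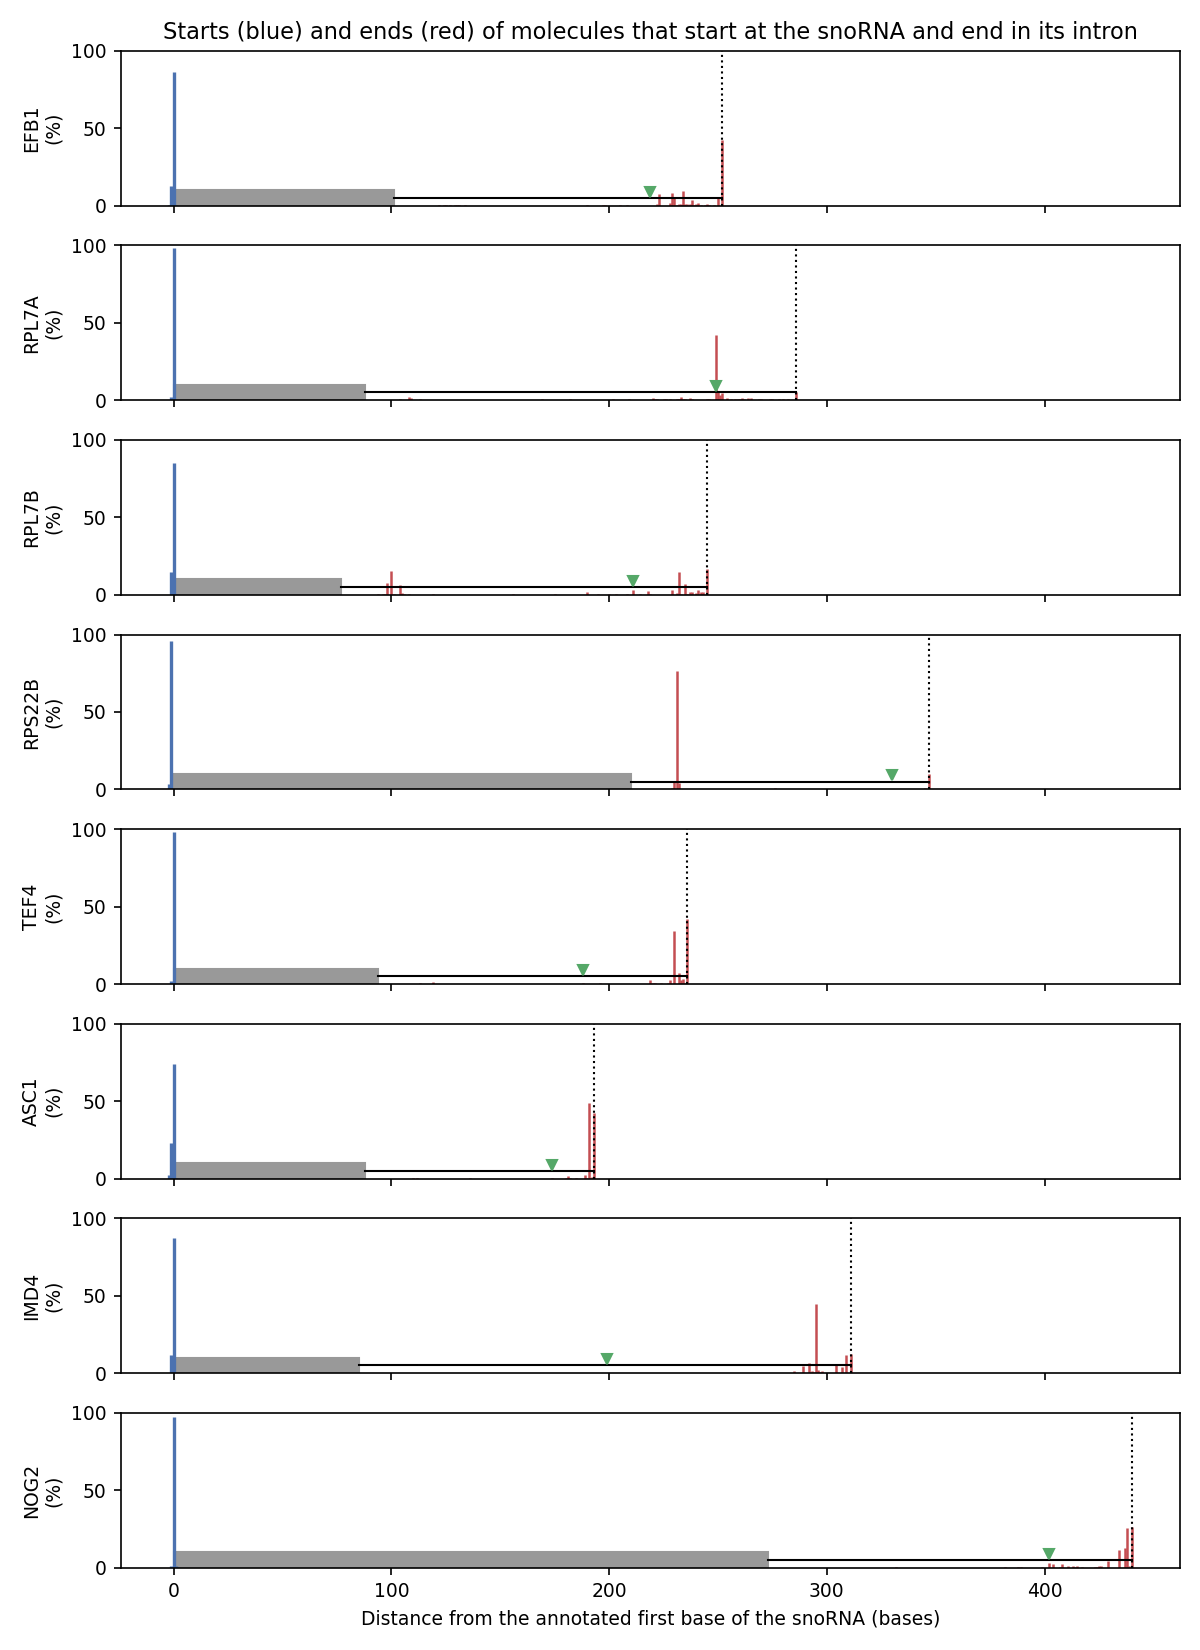
Start (blue) and end (red) positions of the molecules that start at the snoRNA and end in its intron, in percent of those reads per host, against the distance in bases from the annotated snoRNA start. Grey boxes are the snoRNA, black lines the rest of the intron, dotted lines its last base and green triangles the end of TACTAAC. Starts pile up on 1 or 2 bases. Ends gather close to the dotted line in ASC1, NOG2 and TEF4 (median -2 to -4 bases). In EFB1 they spread further back (median -7, lower quartile -22). Ends gather at the triangle in RPL7A, and just past the snoRNA in RPS22B and part of RPL7B.

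The last 50 intron bases and the first 10 of the next exon are given for each host so that the ends can be read against the splice site. The intron ends after the base numbered 50, and capitals mark the bases on which at least 5% of the snoRNA-started reads of that host ended.
EFB1 (chrI:142570-142629, plus strand): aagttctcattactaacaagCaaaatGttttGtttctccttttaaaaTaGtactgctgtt
TEF4 (chrXI:283372-283431, plus strand): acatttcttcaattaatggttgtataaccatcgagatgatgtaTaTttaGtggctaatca
RPL7A (chrVII:364955-365014, minus strand): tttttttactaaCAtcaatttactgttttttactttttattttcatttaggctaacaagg
RPL7B (chrXVI:174023-174082, plus strand): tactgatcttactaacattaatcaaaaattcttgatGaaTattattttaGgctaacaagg
RPS22B (chrXII:857008-857067, plus strand): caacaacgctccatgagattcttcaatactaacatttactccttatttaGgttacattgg
ASC1 (chrXIII:499869-499928, minus strand): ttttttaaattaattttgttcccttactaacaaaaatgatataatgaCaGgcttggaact
IMD4 (chrXIII:163299-163358, minus strand): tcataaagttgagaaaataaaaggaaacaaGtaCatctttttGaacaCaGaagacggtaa
NOG2 (chrXIV:721761-721820, minus strand): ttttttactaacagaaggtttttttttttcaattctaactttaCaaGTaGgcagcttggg

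In ASC1 431 of 468 snoRNA-started reads (92.1%, 89.3 to 94.2) ended within 2 bases of the last intron base, with 225 on the C of its final CAG and 196 on the G. NOG2 had 116 of 224 there (51.8%, 45.3 to 58.2), EFB1 229 of 504 (45.4%, 41.1 to 49.8) and TEF4 145 of 323 (44.9%, 39.6 to 50.3). TEF4 had a further 97 reads on a single base 6 before the end. Where the base after an end is A in the genome, a tail A cannot be told from a genomic A, so an end on the C of CAG may also lie on the A after it.

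IMD4, RPL7B, RPS22B and RPL7A had fewer ends at the splice site. IMD4 had 358 of 1464 there (24.5%, 22.3 to 26.7), and its most used end, with 643 reads, lay 16 bases before the end of the intron. RPL7B had 56 of 316 (17.7%, 13.9 to 22.3), RPS22B 27 of 290 (9.31%, 6.48 to 13.2) and RPL7A 22 of 423 (5.20%, 3.46 to 7.75). In RPL7A, 213 of 423 reads (50.4%, 45.6 to 55.1) ended within 2 bases of the end of TACTAAC. That position held 7 of 316 reads in RPL7B, 11 of 224 in NOG2, 1 each in TEF4 and ASC1 and 0 in EFB1, IMD4 and RPS22B. TACTAAC was present once in each of the 8 snoRNA introns and in 82.7% of the 271 introns of other genes.

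Ends just past the snoRNA were common in only 2 hosts. In RPS22B 212 of 290 snoRNA-started reads (73.1%) ended within 30 bases of the last base of SNR44, 186 of them on 1 base. In RPL7B 79 of 316 (25%) ended within 30 bases of SNR59, the 2 most used of these bases holding 38 and 18 reads. In the other 6 hosts the share was 0% to 5.67%. The 2 H/ACA hosts had a median end 21 bases past SNR44 in RPS22B and 165 bases past SNR191 in NOG2. Ends before A-rich genome (at least 6 A among the next 10 bases) made up 156 of the 3767 snoRNA molecules (4.14%), of which 107 were in IMD4.

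Some snoRNA-started molecules ran past the intron. In RPL7B 50 reads ended in the third exon, 24 of them on 1 base 12 into the exon that is followed by 6 A among 10 bases. TEF4 had 38 such reads, of which the most-read molecules ended 1, 3 and 4 bases into the second exon, and EFB1 had 16. Molecules that started at the snoRNA and ran past the stop codon carried 41 reads in RPS22B, 30 in EFB1 and 21 in RPL7B, and 0 to 9 in the other 5 hosts. Such molecules lack the first exon and the 5′ splice site of the intron. Starts elsewhere in the intron were rare, but in RPS22B 1 site 86 bases inside SNR44 had 31 reads, 28 of which ended 54 bases past the stop codon. Over the 8 hosts, 177 of 16282 reads that passed the stop codon (1.09%, 0.939 to 1.26) began in the snoRNA intron. RPS22B held 80 of the 177, and its own share was 25.3% (20.8 to 30.4). Without it the share was 0.608% (0.498 to 0.741).

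Molecules lying wholly inside an intron were otherwise scarce. All 8 hosts had at least 10 reads that started and ended within 1 intron, against 3 of 183 other intron genes with at least 50 reads (1.64%). The hosts had 218 to 1471 such reads each, with a median of 351.5, while 161 of the 183 had none. The 3 other genes, named after their values were seen, were GCR1 with 43, the RNA helicase gene DBP2 with 11 and the ribosomal protein gene RPL18B with 10, and RPL18B also had 10 reads ending within 2 bases of its last intron base. GCR1 encodes an activator of glycolytic genes. The longest intron per gene had a median of 408.5 bases in hosts and 238 in the others, and the part of intron length in these counts was not tested.

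**Figure D3:**
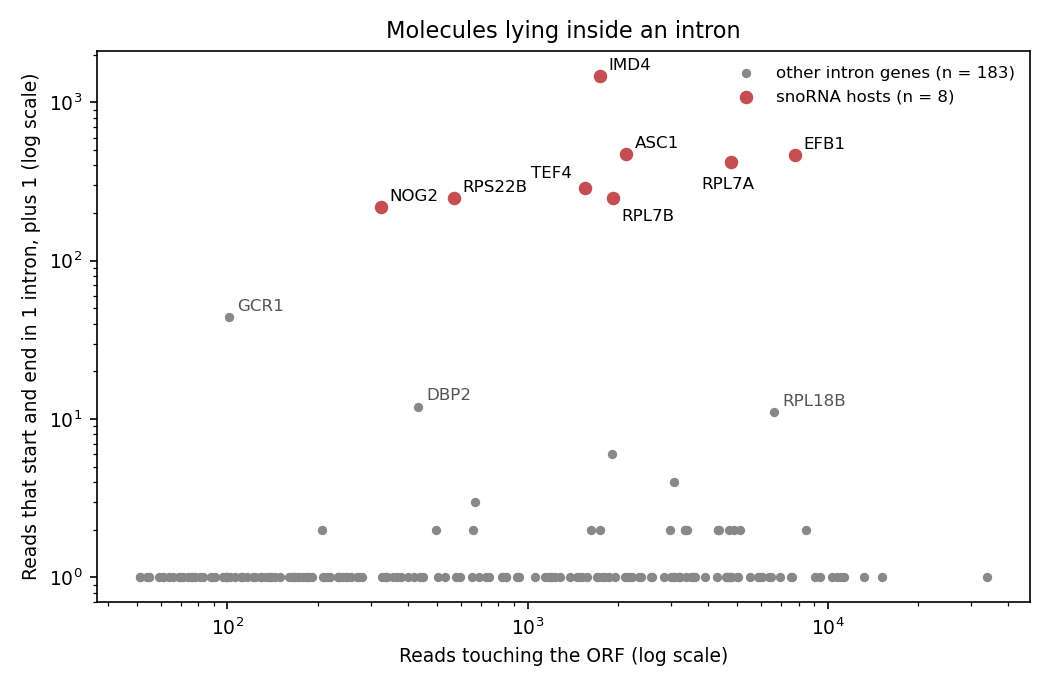
Reads that start and end within 1 intron, plus 1, against reads touching the coding span, both on log scales, for 8 snoRNA hosts (red) and 183 other intron genes with at least 50 reads (grey). Every host lies between 218 and 1471 reads, above GCR1 with 43, the highest of the other genes.

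By class shares alone, the intron genes nearest to the hosts' median were RPL19A, RPL20B and NCE101. The measure was the sum of absolute differences over 6 classes of start and end, in percentage points, and came to 17.02, 20.1 and 20.2. They had 21.7%, 20.3% and 23.4% of reads starting in an intron, where the hosts' median was 21.7%. In these 3 genes, with 3338, 670 and 64 reads in all, reads wholly inside the intron numbered 1, 2 and 0. Among the hosts the distance to their own median ran from 12.6 in ASC1 to 112 in IMD4.

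The opposite kind of molecule, with an mRNA start and an end inside an annotated intron, was frequent in RPL7B alone among the hosts. Ends before the start codon, of which RPS22B had many, are outside this class and are given below. Over the 8 hosts, 344 of 15803 reads that started before the snoRNA intron and reached the coding span (2.18%, 1.96 to 2.42) ended in that intron, and RPL7B held 294 of the 344. Without RPL7B the share was 0.352% (0.267 to 0.464), and without EFB1, which held 6896 of the 15803 reads, it was 3.76% (3.39 to 4.18). At least 1% of upstream-started reads ended in an intron in 2 of 8 hosts, against 26 of 174 other intron genes with at least 50 such reads (14.9%). The second host was NOG2, where the call rested on 1 read. With only molecules of at least 2 reads, the pooled share was 1.32% and 1 host passed. The hosts' median share was 0.547%, against 0.00757% in the other genes. The host shares rested on 1 read each in IMD4 (of 185), RPS22B (of 223) and NOG2 (of 60). The longest intron per gene had a median of 408.5 bases in hosts and 238 in the others, and its part here was not tested. Among the other genes, MND1 (79.6%), SFT1 (36.0%), BIG1 (9.09%), PHO85 (8.22%) and HNT2 (7.45%) had the highest shares.

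RPL7B and RPL7A encode nearly the same protein of the large subunit but differed in these early ends. In RPL7B 476 of 1515 reads that started before the start codon (31.4%, 29.1 to 33.8) ended before the stop codon, against 24 of 4159 (0.577%, 0.388 to 0.857) in RPL7A. The RPL7B ends straddled the exon 2 splice site: 168 lay in exon 2, and 359 of the 476 lay between 50 bases before and 60 bases after the last base of that exon. Counted instead over all 1592 reads that started before the snoRNA intron, 294 ended in that intron. Of these ends, 255 lay before SNR59, 5 inside it and 34 past it. The stretch is shown because of these ends, with the intron beginning at the base numbered 61 and capitals on the bases that ended at least 15 reads.
RPL7B (chrXVI:173606-173725, plus strand): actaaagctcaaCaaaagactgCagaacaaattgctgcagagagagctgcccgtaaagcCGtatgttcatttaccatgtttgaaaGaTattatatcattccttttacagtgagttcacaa

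These 6 bases held 179 reads, with 69 on the T that is 28 bases into the intron, 23 on the G before it by 2, and 24 and 20 on the last exon base and the base after it. The 2 capitals further upstream in the exon, with 25 and 18 reads, are followed by 5 and 6 A among the next 10 bases. Ends before A-rich genome numbered 71 of the 476. The 476 ends fell on 130 positions, and 175 of the 247 distinct molecules had 1 read. With only molecules of at least 5 reads the early-end share of RPL7B was 15.6%, and over distinct molecules it was 75.3%. The start site 27 bases before the start codon was the most used for early-ending molecules (235 reads, 49.4%) and for covering ones (558 reads, 53.7%). Exon 2 differs between the paralogs at 13 of 94 bases, and the last 30 bases of the molecule occurred at 1 place in the genome for 468 of the 476 reads.

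**Figure D4:**
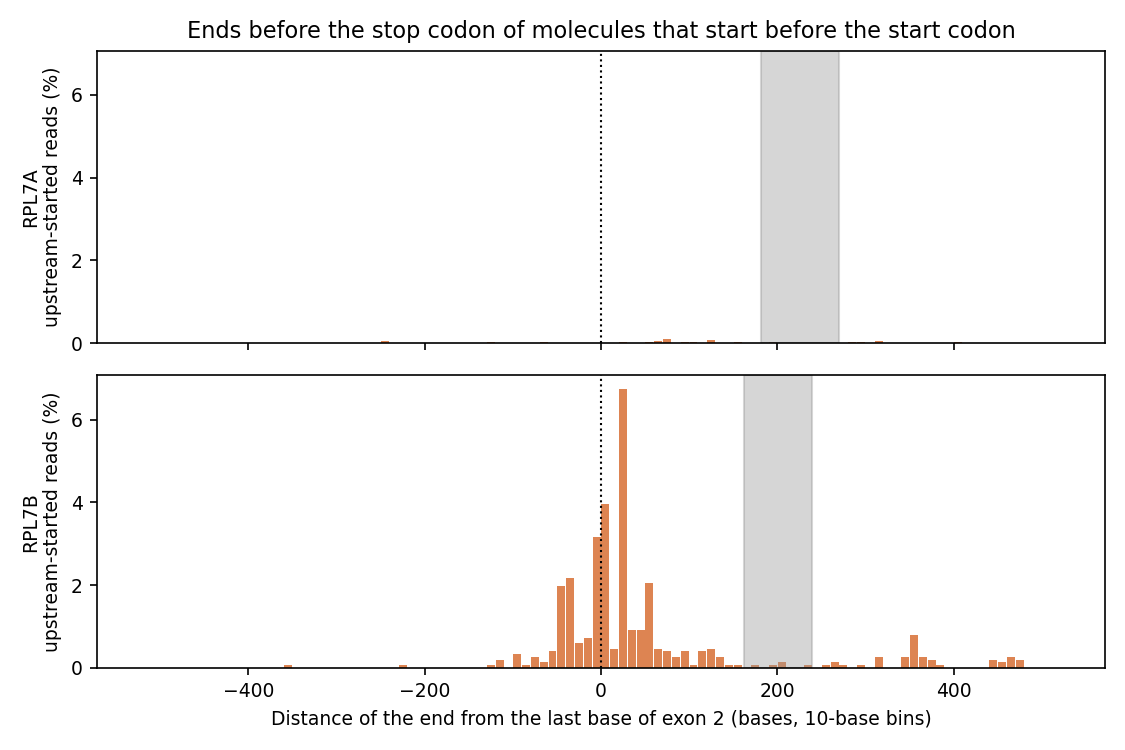
Ends before the stop codon of molecules that start before the start codon, in percent of all such upstream-started reads per 10-base bin, against the distance in bases from the last base of exon 2 (dotted line), for RPL7A and RPL7B. The grey band is the snoRNA; the RPL7B ends gather around the splice site, while RPL7A has 24 such reads in all, against 476.

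In the remaining 6 hosts, reads that started before the start codon and ended between it and the stop codon were few in number. EFB1 had 9 such reads of 6855, TEF4 9 of 952, ASC1 6 of 1456, IMD4 4 of 168, NOG2 2 of 48 and RPS22B 1 of 211. This class leaves out ends before the start codon, of which RPS22B had many: 472 reads began within 700 bases upstream and ended at a median position of -346 from the start codon, against 210 covering reads. Of the 472, 281 (59.5%) used a start site that a covering molecule also used. Covering molecules began a median of 9 to 54 bases before the start codon in 7 hosts and 605 bases before it in RPS22B, and ended a median of 56 to 221 bases past the stop codon. RPS22B is known to have a further intron in its leader, which the annotation used here does not list. The table gives only the 2 ends of a molecule, so whether an intron was removed from a covering molecule is not recorded.

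Covering reads were also counted for genes of the snoRNA particle proteins, of RNA-processing enzymes and of nonsense-mediated decay. Of the C/D proteins, SNU13 had 1999 CPM, NOP1 549, NOP56 88.9 and NOP58 27.3, and of the H/ACA proteins NHP2 had 1111, GAR1 1047, CBF5 207 and NOP10 86.2. The debranching enzyme gene DBR1 had 9 covering reads, the RNase III gene RNT1 26, the 5′ to 3′ exonuclease genes RAT1 2 and XRN1 0. The exact Poisson interval for XRN1 reaches up to 2.01 CPM. The nonsense-mediated decay genes NAM7, UPF3 and NMD2 had 2, 3 and 0. Coding spans differ, up to 4587 bases in XRN1, and the counts are not used to rank these genes. Covering molecules of paralogs without an intronic snoRNA came to 1154 CPM for RPS22A, 126 CPM for CAM1, 79.6 CPM for IMD3 and 8.73 CPM for IMD2. Reads shared between these paralogs and the hosts were not checked.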

How the data were processed

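RNA of rrp6-deleted yeast was read by TIF-Seq in 4 libraries (2 cultures, 2 preparations each). Per the file headers, the deposited table holds 1 count column for the group, with chromosome, strand, start and end of each distinct molecule, so libraries, their depths and replicate errors cannot be separated. Per the submitters' processing notes, CASAVA and Novoalign 2.07.10 were used with build R64; their settings and any removal of PCR copies were not given in the sources used here. Counts were used as deposited, 1833796 reads in all, with no filter.

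Positions were set against the R64 reference and its annotation (Python 3.11.15, pandas 2.3.3, scipy 1.17.1, matplotlib 3.10.9). Introns are gaps of at least 20 bases between coding exons. A start at the snoRNA lies within 2 bases of its annotated first base. Shares carry 95% Wilson intervals and CPM 95% exact Poisson intervals. For a count of 0 the Poisson interval reaches up to 2.01 CPM. With 1 pooled group no test between groups could be run. Other intron genes needed at least 50 reads touching the coding span, or 50 upstream-started reads, and at least 10 reads inside an intron or 1% of ends there to count. Named were all hosts, the 5 other intron genes with the highest share of intron ends, the 3 nearest in class shares, paralogs and a list of processing factors. Members and lists were chosen with earlier results of these data known, and the snoRNA molecule shares, the ends near the splice site and the counts inside introns were added after the data were seen. The class assignment was tested on simulated data, where 4000 of 4000 molecules in the 8 hosts received their class. The simulated positions were drawn within the boundaries that define the classes, so this checks only that the code applies them.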

Additional observations from a re-analysis of the deposited data

How the results depend on the processing

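For the 6 results over all hosts, values that leave the counting interval of the reported one, or for a count differ from it by over 1.5 times, are listed here; 24 of 55 alternatives did so. The planned omission of single libraries, cultures and preparations was not run, because the table pools them, and no paired analysis was possible because there is 1 group. A narrower and a wider flank changed no value, since shares use only molecules touching the coding span.

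The share of snoRNA molecules (18.1%) was 19.5% with at least 2 reads per distinct molecule, 20.3% with at least 5, 8.84% over distinct molecules, 19.0% without ends before A-rich genome, 9.83% with the intron shortened by 10 bases on each side, which removes ends at the splice site, and 14.9% with starts on the annotated base only. The settings on this share and on ends were chosen after seeing the data. The share ending near the last intron base (34.5%) was 37.5% with at least 5 reads, 13.6% over distinct molecules, 36.2% without A-rich ends, 20.7% on the last base only and 38.8% within 5 bases.

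The share of upstream-started reads ending in the intron (2.18%) was 1.32% and 0.760% with at least 2 and 5 reads, 8.82% over distinct molecules and 1.93% with the shortened intron. The number of hosts past 1% (2) was 1 with at least 2 reads, with at least 5, with the shortened intron, at 5% and at a minimum of 200 reads, and 6 over distinct molecules. The share of reads past the stop codon that began in the intron (1.09%) was 0.849% and 0.763% with at least 2 and 5 reads and 2.71% over distinct molecules. The early-end share of RPL7B (31.4%) was 23.2% and 15.6% with at least 2 and 5 reads, 28.0% without A-rich ends and 75.3% over distinct molecules. For single hosts, 38 of 87 alternatives moved beyond the interval. With starts on the annotated base only, the snoRNA share of RPS22B was 0.175%, since its reads begin 1 base earlier, and with the shortened intron the share was 15.1% in NOG2 (66.0%), 1.16% in TEF4 (18.3%), 2.91% in EFB1 (5.88%) and 0.892% in ASC1 (21.6%), which puts NOG2 below RPS22B (38.0%). Apart from these changes of definition, the cause was not tested. In all settings run for it, 8 of 8 hosts had at least 10 reads inside an intron.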

Other observations

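Upstream of the window used for RPS22B, 472 reads on 94 distinct molecules began within 700 bases of its start codon and ended before the window. Counted from the start codon, their median start was at -587 and their median end at -346, with the quartiles of the end at -347 and -346, and the median length was 244 bases. The most-read of the upstream molecules, on chromosome XII from 855865 to 856094 of the plus strand in R64, had 56 reads.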
